A study of Mus musculus with 14 samples.

Results

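The genes that make, store, take up, degrade and sense serotonin in the gut were examined in the intestine of WT and MiR-29ab1-/- mice. The set held 9 genes (Tph1, Ddc, Slc18a1, Slc6a4, Maoa, Lmx1a, Trpa1, Htr4 and Piezo2), chosen by name, of 55889 genes listed in the experiment without DSS and of 54721 genes listed in the experiment with DSS. In the first experiment, 4 WT mice and 4 germline MiR-29ab1-/- mice were compared under physiological conditions. In the second experiment, 3 WT mice and 3 MiR-29ab1-/- mice were compared after 3 days of 3.5% DSS (dextran sulfate sodium) in the drinking water, which injures the colonic epithelium. The labels give the strain C57BL/6N, and the methods of the study give littermates of 8 to 12 weeks, matched for age and sex. The deletion was present in every cell of the MiR-29ab1-/- mice, so no cell type was targeted. The RNA came from whole samples that hold many cell types, so that fewer cells of a type and less RNA per cell cannot be told apart.

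Most serotonin of the body is made by enterochromaffin cells, enteroendocrine cells that are scattered singly through the intestinal epithelium. Tph1 hydroxylates tryptophan, Ddc decarboxylates the product to serotonin, and the vesicular transporter encoded by Slc18a1 loads it into granules that also hold the granins Chga and Chgb. Released serotonin acts on receptors such as Htr4, is taken up by the transporter encoded by Slc6a4 and is degraded by the oxidase encoded by Maoa. Lmx1a is a transcription factor of enterochromaffin cells, and Piezo2 and Trpa1 are ion channels through which these cells sense stretch and irritants. In mice, mast cells express Tph1 too. Ddc, Maoa, Slc6a4 and Htr4 are also known from other epithelial cells, so they do not mark enterochromaffin cells alone.

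The miRNAs that the deletion removes share their seed, bases 2 to 8 of the mature miRNA, with miR-29c-3p, whose gene lies on another chromosome. The sequences are shown because the seed decides which sites these miRNAs could pair with. They are from RefSeq (GRCm38.p6) with the seed in capitals, and all matched by name.
miR-29a-3p (Mir29a, chr6:31062673-31062694, minus strand): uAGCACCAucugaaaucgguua
miR-29b-3p (Mir29b-1, chr6:31063025-31063047, minus strand): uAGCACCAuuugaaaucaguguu
miR-29c-3p (Mir29c, chr1:195037600-195037621, plus strand): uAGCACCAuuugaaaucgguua
A copy of miR-29b-3p with the same sequence is also encoded by Mir29b-2 (chr1:195037091-195037113, plus strand), which the deletion leaves in place.

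A match to the seed, TGGTGCT on the sense strand of the transcript, was looked for in the annotated 3′ UTRs of the 9 genes in GENCODE vM21 (GRCm38). Tph1 held 1 match, and Ddc, Slc18a1, Slc6a4, Maoa, Lmx1a, Trpa1, Htr4 and Piezo2 held 0. Chga and Chgb, the granins measured beside them, held 0. Of 21037 protein-coding genes with an annotated 3′ UTR, 2908 (13.8%) held at least 1. The match in Tph1 was in 1 of its 3 coding transcripts with a 3′ UTR, and it is shown with the bases that would lie opposite the miRNA, the match in capitals.
Tph1 3′ UTR (chr7:46645615-46645636, minus strand): ccactagactctggTGGTGCTg
The match is a description of the sequence, and pairing with a miRNA was not measured.

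On GRCm38, Tph1 lies at chr7:46644641-46672537, Ddc at chr11:11814101-11898144, Slc18a1 at chr8:69037711-69089235, Slc6a4 at chr11:76998603-77032340, Maoa at chrX:16619698-16687818, Lmx1a at chr1:167689237-167848741 and Trpa1 at chr1:14872648-14918862, and Htr4 and Piezo2 lie on chromosome 18. No other annotated gene has exons that overlap those of the 9 genes on either strand.

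Before the results, the libraries were checked. The total count was 14231157 to 18185020 reads without DSS, where each WT library was deeper than each MiR-29ab1-/- library, and 20076719 to 23153149 reads after DSS. The mature miRNAs are not measured in libraries of this kind, but Lncpint, next to the deleted locus, had 7 to 23 reads in WT and 1386 to 2889 reads in MiR-29ab1-/- mice without DSS, and 6 to 14 and 706 to 1144 reads after DSS, so each library matched its genotype. MiR-29ab1-/- DSS mice 1 and 2 stood apart, with 14.8% and 20.2% of their reads on mitochondrial genes against 6.15% to 8.81% in the other mice after DSS. Over all genes, MiR-29ab1-/- DSS mouse 3 was nearer to each WT DSS mouse (chi-square per degree of freedom 14.8 to 37.9) than to MiR-29ab1-/- DSS mice 1 and 2 (88.9 and 168). Leaving out mouse 2 left 268 genes higher and 215 lower in MiR-29ab1-/- DSS mice, against 593 and 485 with all mice, and leaving out MiR-29ab1-/- DSS mouse 3 gave 1288 and 1242. The labels give small intestinal crypts as the tissue and the study gives colon. Car1 and Hoxb13, markers of colonic epithelium, were present in all 14 mice (Car1 at 930.0 CPM or more, CPM being reads scaled to the library size), and the 10 markers on the list for the small intestine were all detected. Of these, Fabp2 was at 145 to 403 CPM, Alpi at 9.97 to 31.1 CPM and Sis at 0.34 to 10.3 CPM, Lyz1, Defa24 and Apoa1 reached 3.01, 2.38 and 1.71 CPM, and Gata4, Apoa4, Lct and Onecut2 did not exceed 0.854 CPM. Markers of smooth muscle summed to 1.05 to 3.92 CPM and those of enteric neurons to 4.16 to 8.75 CPM.

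Levels between genes were compared as CPM per kilobase of gene length. Without DSS, Maoa was the highest of the 9 genes in WT mice, at 151 ± 26.6 CPM per kb (SD, n = 4). Ddc followed at 11.0 ± 1.29, Htr4 at 5.75 ± 0.265, Slc6a4 at 2.96 ± 0.675 and Tph1 at 2.41 ± 0.942 CPM per kb, and the ranges of Slc6a4 and Tph1 overlapped. Slc18a1 was at 0.925 ± 0.168, Lmx1a at 0.313 ± 0.0787 and Piezo2 at 0.0957 ± 0.0264 CPM per kb. Trpa1 had 0 reads in all 14 mice, which allows at most 0.211 CPM in the shallowest library, counting error only. The order after DSS in WT mice was the same except that Slc6a4 (4.32 ± 0.614 CPM per kb, n = 3) stood above Htr4 (2.49 ± 0.528), and the ranges of Lmx1a and Piezo2 overlapped. The enzyme Ddc was thus listed far above Tph1, which is known as the limiting step of serotonin synthesis.

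The first comparison asked how the genotypes differed without DSS. Of the 9 genes, 8 had enough reads to be tested, and 1 of 8 passed an unadjusted p under 0.05, the cutoff of the study, with the lower level in MiR-29ab1-/- mice. Over all 15441 genes tested, 3.67% passed this cutoff in either direction, 1.58% lower and 2.09% higher in MiR-29ab1-/- mice. None of the 8 passed after Benjamini-Hochberg adjustment over all genes (0.0194% of all genes did), and the genotypes overlapped in all 8, whereas 2.03% of all genes did not overlap. The median log2 fold change of the 8 genes was -0.20, and that of all genes was -0.0016. With 1 gene past the cutoff among 8, the set as a whole was not shown to differ from the background.

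Tph1 was the gene that passed. It was at 22.1, 8.89, 16.7 and 11.8 CPM in WT mice 1 to 4 and at 10.8, 12.2, 7.94 and 7.46 CPM in MiR-29ab1-/- mice 1 to 4. The 2 highest values were WT and the 2 lowest were MiR-29ab1-/-, but WT mice 2 and 4 lay within the MiR-29ab1-/- range. The mean fell from 14.9 ± 5.82 to 9.60 ± 2.27 CPM (SD, n = 4 each), a log2 fold change of -0.63 (SE 0.28, 95% interval -1.25 to -0.005, past the cutoff in edgeR's quasi-likelihood test, adjusted p = 0.9995). The call rested on single mice: without WT mouse 1 the log2 fold change was -0.36 and missed the cutoff, as it did without WT mouse 3 (-0.57) and without MiR-29ab1-/- mouse 1 (-0.69), 3 (-0.54) or 4 (-0.53). The study states that a WT and a MiR-29ab1-/- sample were left out, without naming them. Here DESeq2 on all mice without DSS called 493 genes higher and 305 lower at an unadjusted p under 0.05. The study prints the same counts for this comparison, so its counts match a fit with no mouse left out. Over the 16 ways to leave out 1 mouse of each genotype, a check on single mice chosen after seeing the data, Tph1 passed in 5. Its log2 fold change was -0.95 to -0.27 over these fits. With the replicate number of the labels as a block, it was -0.58 and missed the cutoff. Across the 4 WT mice, the Tph1 level had the same order as the share of mitochondrial reads (13.9%, 6.38%, 11.1% and 9.72% in mice 1 to 4). It did not in the 4 MiR-29ab1-/- mice (8.14%, 5.7%, 7.09% and 12.3%), where mouse 4 had the highest share and the lowest Tph1 level and mouse 2 the lowest share and the highest level. The part of the mitochondrial share in the result was not tested.

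**Figure D1:**
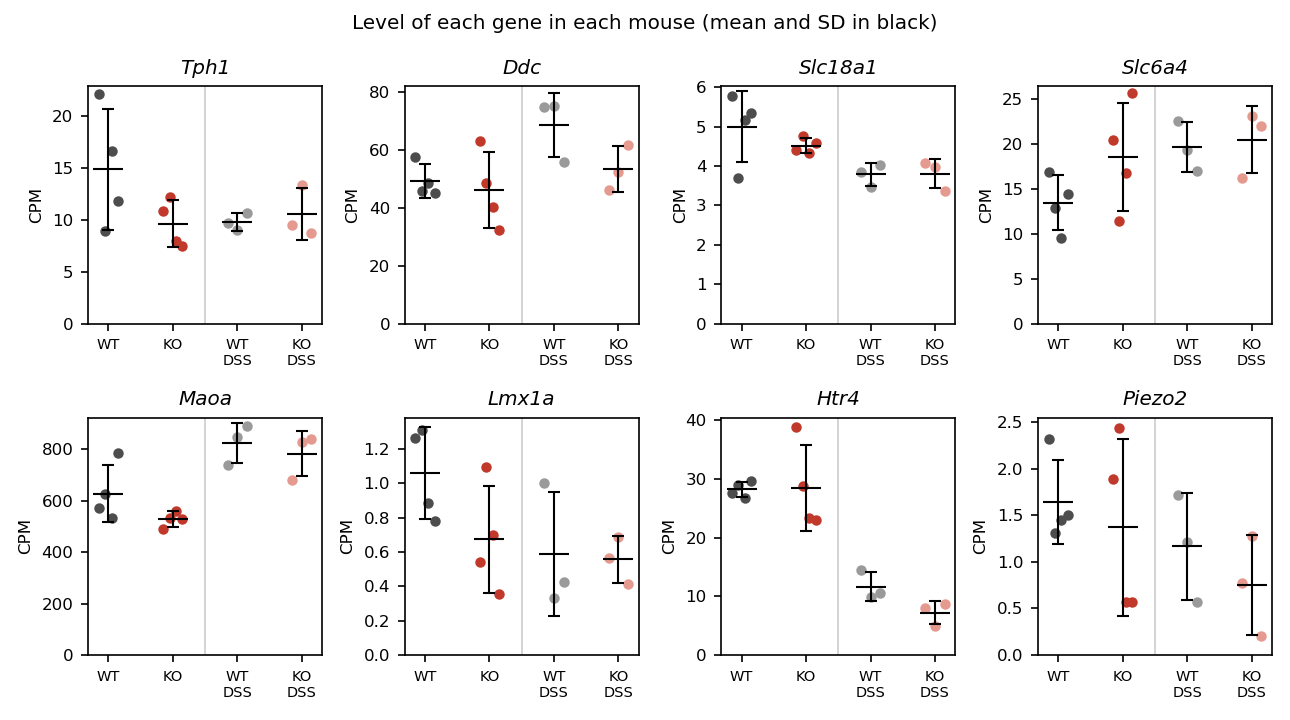
Levels in CPM (vertical axis from 0, a separate scale for each gene) of 8 serotonin genes in each mouse, with the group mean and SD in black. KO stands for MiR-29ab1-/-, and the grey line separates the experiment without DSS from that after DSS. Tph1 of WT mouse 1 (22.1 CPM) is the highest point of its panel, and the Htr4 values of the genotypes after DSS do not overlap.

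Ddc, the second step of synthesis, did not pass the test. It was at 57.5, 45.8, 48.4 and 44.9 CPM in WT mice and at 63.0, 48.5, 40.3 and 32.1 CPM in MiR-29ab1-/- mice, with a log2 fold change of -0.10 (SE 0.18, 95% interval -0.51 to 0.31). The MiR-29ab1-/- mice spanned the whole WT range and reached below it. Slc18a1, the granule transporter, was at 3.70 to 5.78 CPM in WT and 4.32 to 4.75 CPM in MiR-29ab1-/- mice, with a log2 fold change of -0.15 (95% interval -0.59 to 0.29). The related transporter Slc18a2, of neurons and mast cells, was at 1.36 to 3.16 CPM in all 8 mice, and the neuronal hydroxylase Tph2 had 0 reads in all 14 mice.

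Of the genes that end the action of serotonin, neither passed the test. Slc6a4 was at 16.9, 12.9, 9.55 and 14.4 CPM in WT mice and at 20.4, 11.4, 16.8 and 25.6 CPM in MiR-29ab1-/- mice. The 2 highest values were MiR-29ab1-/- and the groups overlapped, with a log2 fold change of 0.46 (SE 0.25, 95% interval -0.09 to 1.01). Without MiR-29ab1-/- mouse 2 it was 0.65 and passed the cutoff. Maoa was at 533 to 784 CPM in WT and 490.0 to 562 CPM in MiR-29ab1-/- mice, with a log2 fold change of -0.25 (95% interval -0.53 to 0.04). Without WT mouse 3 it was -0.31 and passed the cutoff.

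Htr4 did not pass the test without DSS. It was at 26.7 to 29.6 CPM in WT and 22.9 to 38.7 CPM in MiR-29ab1-/- mice, with a log2 fold change of 0.01 (95% interval -0.34 to 0.36), and MiR-29ab1-/- mouse 1 was above all WT mice. Lmx1a had few reads, at 0.78 to 1.31 CPM in WT and 0.36 to 1.10 CPM in MiR-29ab1-/- mice, and its log2 fold change of -0.64 had an interval from -1.51 to 0.24, and passed the cutoff without MiR-29ab1-/- mouse 2 (-0.97). Piezo2 was at 1.31 to 2.31 CPM in WT and 0.57 to 2.44 CPM in MiR-29ab1-/- mice, and the interval of its log2 fold change of -0.26 ran from -1.31 to 0.80. At this depth a 2-fold lower level of Lmx1a or Piezo2 in MiR-29ab1-/- mice lay within the interval.

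The second comparison asked how the genotypes differed after DSS. Here 2 of the 8 tested genes, Htr4 and Ddc, passed the same cutoff, both lower in MiR-29ab1-/- DSS mice. Over all 14908 genes tested, 7.23% passed in either direction, 3.25% lower and 3.98% higher. None of the 8 passed after adjustment (0.0134% of all genes did), and 1 of 8 did not overlap between genotypes, against 11.6% of all genes. The median log2 fold change of the 8 genes was -0.086, against -0.0051 for all genes.

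Htr4, a receptor coupled to adenylyl cyclase that is known to promote secretion and motility, was at 14.4, 9.84 and 10.5 CPM in WT DSS mice and at 7.98, 4.98 and 8.66 CPM in MiR-29ab1-/- DSS mice. Each MiR-29ab1-/- DSS mouse was below each WT DSS mouse. The mean fell from 11.6 ± 2.46 to 7.21 ± 1.96 CPM (SD, n = 3 each), a log2 fold change of -0.68 (SE 0.24, 95% interval -1.23 to -0.13, past the cutoff in edgeR, adjusted p = 0.646). Without MiR-29ab1-/- DSS mouse 2, the mouse with the high mitochondrial share and the lowest Htr4 level, the log2 fold change was -0.48 and without WT DSS mouse 1 it was -0.50, and both missed the cutoff. Without MiR-29ab1-/- DSS mouse 3 it was -0.84 and passed. The 2 lowest Htr4 levels were those of the mice with the highest mitochondrial shares, MiR-29ab1-/- DSS mice 1 and 2, while mouse 3, with a share of 7.43%, was also below all WT DSS mice. The part of the mitochondrial share in the result was not tested.

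Ddc was at 74.7, 75.1 and 55.7 CPM in WT DSS mice and at 45.9, 52.4 and 61.5 CPM in MiR-29ab1-/- DSS mice. The 2 highest values were WT, and the lowest WT mouse lay within the MiR-29ab1-/- range. The mean fell from 68.5 ± 11.1 to 53.3 ± 7.85 CPM (n = 3 each), a log2 fold change of -0.36 (SE 0.15, 95% interval -0.70 to -0.025, past the cutoff in edgeR, adjusted p = 0.657). The call was lost without WT DSS mouse 1 or 2 (log2 fold change -0.30 each), without MiR-29ab1-/- DSS mouse 1 (-0.26) or 2 (-0.35), and in a model over both experiments (-0.36). The 2 lowest Ddc levels too were those of MiR-29ab1-/- DSS mice 1 and 2, and mouse 3 lay within the WT range. Whether their mitochondrial shares bear on it was not tested.

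Tph1 did not differ between the genotypes after DSS beyond the spread between mice. It was at 9.71, 8.999 and 10.7 CPM in WT DSS mice and at 9.52, 13.4 and 8.70 CPM in MiR-29ab1-/- DSS mice, with a log2 fold change of 0.10 (95% interval -0.34 to 0.54). MiR-29ab1-/- DSS mouse 2, with 20.2% of its reads on mitochondrial genes, was the highest of the 6 mice and without it the log2 fold change was -0.10. Mouse 1, with 14.8%, lay within the WT range. The part of the mitochondrial share in the Tph1 level was not tested. The other genes did not pass either. The log2 fold change was 0.006 for Slc18a1 (95% interval -0.50 to 0.51), 0.060 for Slc6a4 (-0.32 to 0.44), -0.076 for Maoa (-0.38 to 0.23), -0.096 for Lmx1a (-1.29 to 1.09) and -0.67 for Piezo2 (-2.10 to 0.76).

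**Figure D2:**
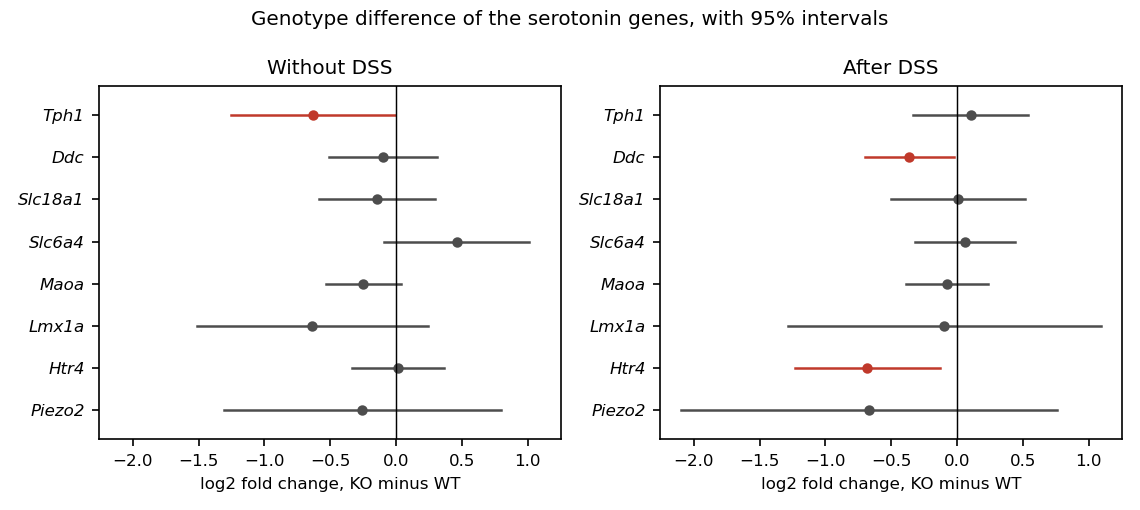
Log2 fold change of MiR-29ab1-/- (KO) against WT mice for 8 serotonin genes (horizontal axis) without DSS (left) and after DSS (right), as points with 95% intervals from edgeR. Red marks an unadjusted p under 0.05: Tph1 without DSS (-0.63), and Ddc (-0.36) and Htr4 (-0.68) after DSS.

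Whether the genotype difference itself differed between the experiments was tested in one model over the 14 mice. Of the 8 genes, 1 passed the cutoff, against 4.03% of 16370 genes, and 0 passed after adjustment, as for all genes by edgeR (0.0% of genes) and by DESeq2. This was Htr4, whose log2 fold change was lower by 0.69 after DSS than without DSS (interaction -0.69, SE 0.30, 95% interval -1.32 to -0.06, past the cutoff in edgeR, adjusted p = 0.987). The interaction of Tph1 was 0.73 (95% interval -0.07 to 1.53, not past the cutoff), so that its call without DSS and the absence of one after DSS were not shown to differ with all mice. It passed in 2 fits that left out a mouse, without WT mouse 2 (0.90) and without MiR-29ab1-/- mouse 2 (0.87). The intervals of the other 6 genes included 0.

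Levels of the 2 experiments are given side by side, since DSS and experiment cannot be told apart and each table was scaled on its own. Htr4 was at 22.9 to 38.7 CPM in the 8 mice without DSS and at 4.98 to 14.4 CPM in the 6 mice after DSS, without overlap. Maoa was at 490.0 to 784 CPM without and 683 to 889.9 CPM after DSS, and Ddc at 32.1 to 63.0 and 45.9 to 75.1 CPM. Tph1 was at 7.46 to 22.1 CPM without and 8.70 to 13.4 CPM after DSS. The libraries of the experiments differed in other genes too: Muc2, the main mucin of goblet cells, was at 22.1 to 164 CPM without and 3549 to 7992 CPM after DSS. The gene length listed for Htr4 was 4908 bases without DSS and 4657 after DSS, and that for Piezo2 was 17162 and 14566 bases.

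The granule genes that enterochromaffin cells share with other enteroendocrine cells were set beside Tph1. Without DSS, Chga, the most used marker of these cells, was at 78.5, 52.1, 67.7 and 72.8 CPM in WT mice and at 41.2, 32.6, 34.0 and 35.0 CPM in MiR-29ab1-/- mice. Each MiR-29ab1-/- mouse was below each WT mouse, and the log2 fold change was -0.93 (SE 0.13, 95% interval -1.22 to -0.63, past the cutoff in edgeR, adjusted p = 0.0971). Chgb was at 140, 84.9, 104 and 103 CPM in WT and 54.6, 63.9, 64.8 and 46.4 CPM in MiR-29ab1-/- mice, again without overlap, with a log2 fold change of -0.91 (SE 0.16, 95% interval -1.26 to -0.56, edgeR adjusted p = 0.368). In contrast to Tph1, Chga and Chgb passed the cutoff in edgeR in all 16 fits that left out 1 mouse of each genotype.

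The list of granins and secretory granule proteins was chosen with earlier results of these data known. Its counts beside those of all genes are therefore a description and not a test. Of its 17 tested genes, 7 were lower and 0 higher without DSS, and 6 of the 7 did not overlap between genotypes. Over all genes, 1.58% were lower and 2.03% did not overlap. The median log2 fold change of the list was -0.55, against -0.0016 for all genes. Besides the granins, they were Pcsk1 (-0.49), a convertase that cleaves prohormones, its inhibitor Pcsk1n (-0.86), the synaptic vesicle protein Syp (-0.92), Rab3c (-1.57), a GTPase of vesicle release, and Ptprn (-0.71), a membrane protein of dense-core granules. After DSS, 2 of 16 tested genes were lower and 0 higher (3.25% of all genes were lower): Chga, at 59.7, 45.0 and 49.5 CPM in WT DSS and 30.3, 38.8 and 44.2 CPM in MiR-29ab1-/- DSS mice (log2 fold change -0.44, edgeR adjusted p = 0.646), and Pcsk1 (-0.41). Chga no longer passed without WT DSS mouse 1 (-0.32) or MiR-29ab1-/- DSS mouse 1 (-0.31). Chgb after DSS had a log2 fold change of -0.30 (95% interval -0.61 to 0.018), and passed without MiR-29ab1-/- DSS mouse 2 (-0.44) and with no filter on low counts (-0.30).

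**Figure D3:**
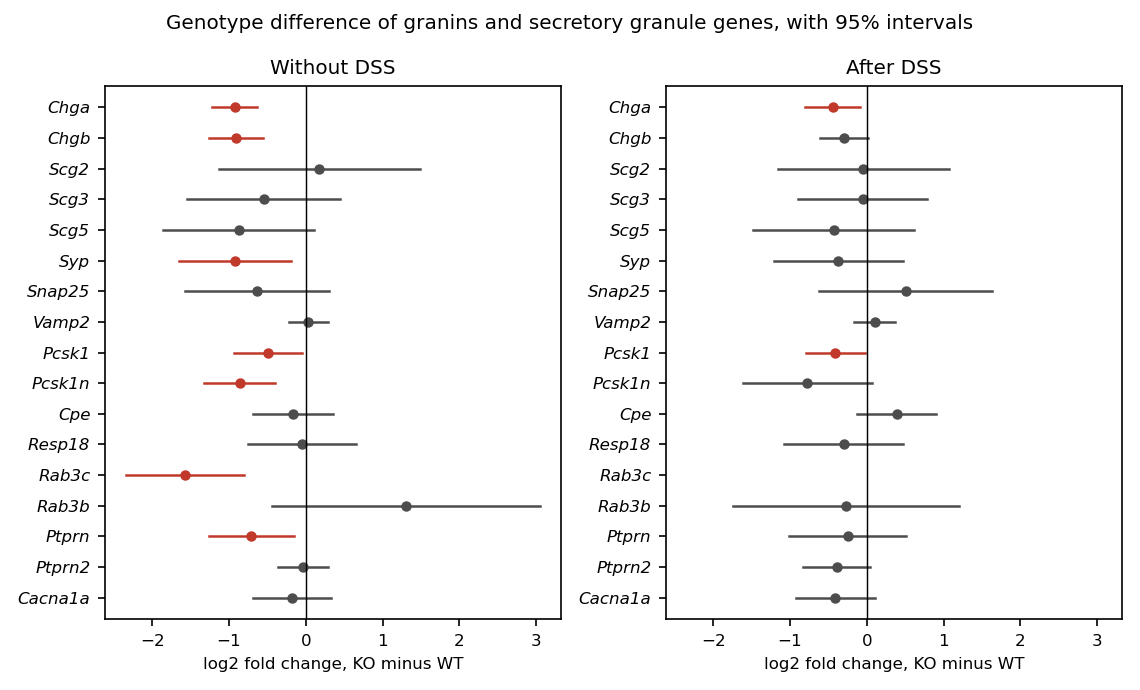
Log2 fold change of MiR-29ab1-/- (KO) against WT mice for the tested genes of granins and secretory granules without DSS (left, 17 genes) and after DSS (right, 16 genes), as points with 95% intervals from edgeR. Red marks an unadjusted p under 0.05, 7 genes on the left and 2 on the right, all below 0. The list was chosen with earlier results of these data known. Rab3c had too few reads after DSS and has no point there.

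The reads of Tph1 were then set against those of Chga in the same mouse, a ratio that does not depend on the scaling of libraries. Without DSS there were 28.2, 17.1, 24.6 and 16.2 Tph1 reads per 100 Chga reads in WT mice, and 26.3, 37.4, 23.4 and 21.3 in MiR-29ab1-/- mice. The genotypes overlapped, and the mean log2 ratio was -2.26 ± 0.394 in WT and -1.92 ± 0.355 in MiR-29ab1-/- mice (SD, n = 4 each; two-sided exact permutation p = 0.257, the smallest possible being 0.0286). After DSS there were 16.3 and 21.6 Tph1 reads per 100 Chga reads in WT DSS mice 1 and 3, with mouse 2 between them, and 31.5, 34.4 and 19.7 in MiR-29ab1-/- DSS mice. MiR-29ab1-/- DSS mouse 3 lay within the WT range, and the log2 ratio was higher by 0.53 in the mean (two-sided exact permutation p = 0.3, n = 3 each, the smallest possible being 0.1). Against the summed reads of 9 epithelial genes, the log2 ratio of Tph1 differed by -0.57 in MiR-29ab1-/- mice without DSS (two-sided exact permutation p = 0.314). The difference was -0.12 against markers of colonic epithelium, and -0.85 to -0.28 with 1 mouse left out. After DSS it was -0.022 against the 9 epithelial genes (two-sided exact permutation p = 0.9). The markers of colonic epithelium include Muc2, at 22.1 to 164 CPM without DSS, where Car1 made up most of their sum. Car1 was at 2449 to 4143 CPM in WT mice, with sums of 3029 to 4694 CPM. In MiR-29ab1-/- mice it was at 930.0 to 3719 CPM, with sums of 1591 to 4320 CPM.

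**Figure D4:**
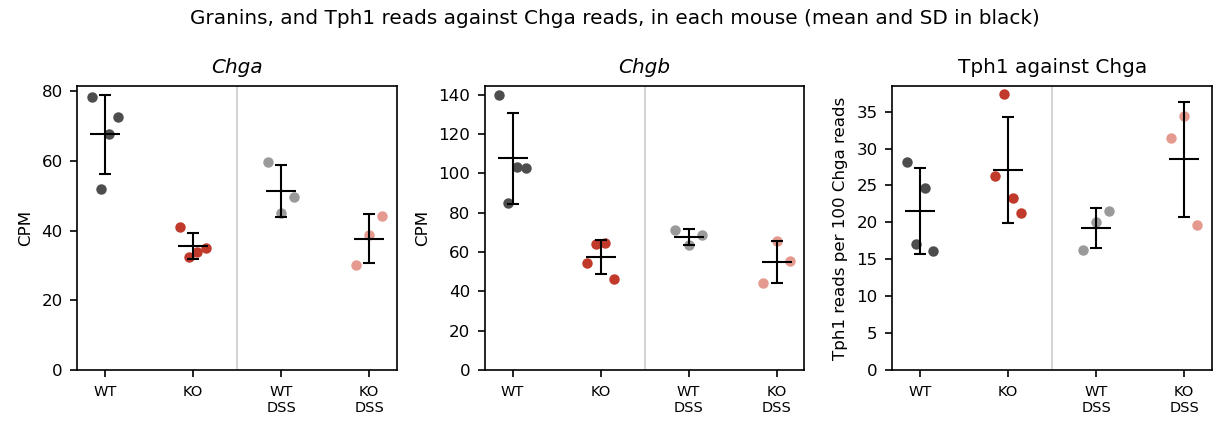
Levels in CPM of Chga (left) and Chgb (middle), and Tph1 reads per 100 Chga reads (right), in each mouse with the group mean and SD in black, all axes from 0. KO stands for MiR-29ab1-/-. Without DSS the genotypes are separate for Chga and Chgb and overlap for the ratio.

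The remaining genes of the pathway were described by lists, of which 0 genes passed after adjustment in edgeR, and calls are at the cutoff of 0.05. Over all genes, 1.58% were lower and 2.09% higher without DSS, and 3.25% were lower and 3.98% higher after DSS. Of the 7 genes of tetrahydrobiopterin synthesis, the cofactor of Tph1, 0 passed without DSS. After DSS 1 of 7 passed: Gch1, the first enzyme of that pathway, was at 34.8, 44.2 and 40.0 CPM in WT DSS and 63.5, 68.6 and 38.1 CPM in MiR-29ab1-/- DSS mice (log2 fold change 0.52, edgeR adjusted p = 0.668). MiR-29ab1-/- DSS mice 1 and 2, with the highest mitochondrial shares, were above all other mice, and mouse 3 lay within the WT range. The call was lost without any 1 of the 3 WT DSS mice or of MiR-29ab1-/- DSS mice 1 and 2, and in a model over both experiments. Of the 14 tested genes for other synthesis, transport and clearance without DSS, Ido1, which turns tryptophan into kynurenine, was higher (log2 fold change 1.13) and Sult1a1, a sulfotransferase, was lower (-0.38). After DSS 2 of 13 were lower: Slc22a3, an organic cation transporter that can carry serotonin (-1.08), and the aldehyde dehydrogenase Aldh1b1 (-0.51).

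Apart from Htr4, the 13 other serotonin receptor genes of the list had too few reads to be tested in either experiment, and 9 of 13 had 0 reads in all 8 mice without DSS. The highest value of any of them was 0.37 CPM (Htr2b). Of the transcription factors of enteroendocrine and secretory cells, 0 of 13 tested passed without DSS, with a median log2 fold change of -0.34 and 10 of 13 below 0. Among them was Fev, the serotonergic factor of enterochromaffin cells, at 1.06 to 2.48 CPM in WT and 0.73 to 1.27 CPM in MiR-29ab1-/- mice (log2 fold change -0.71, 95% interval -1.47 to 0.044). After DSS 1 of 11 passed, against 7.23% of all genes: Atoh1, the factor that secretory cells need, was at 66.6 to 68.5 CPM in WT DSS and 43.8 to 60.7 CPM in MiR-29ab1-/- DSS mice (log2 fold change -0.39), without overlap. Of the 11, 3 were lower without overlap, and 11.6% of all genes did not overlap. Fev was 1 of the 3, with few reads, at 0.59 to 0.80 CPM in WT DSS and 0.29 to 0.48 CPM in MiR-29ab1-/- DSS mice. Its log2 fold change of -0.93 (95% interval -1.92 to 0.065) did not pass the cutoff.

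Of the 17 tested genes of sensing by enterochromaffin and tuft cells without DSS, 3 were higher and 0 lower (2.09% of all genes were higher). They were Trpm5, a cation channel best known from tuft cells (log2 fold change 0.55), and Il4ra (0.28) and Il13ra1 (0.31), subunits of the receptor for interleukins 4 and 13. After DSS 2 of 17 were lower (3.25% of all genes), the short-chain fatty acid receptor Ffar2 (-0.56) and the somatostatin receptor Sstr2 (-1.06). Of 11 tested genes of peptides of enteroendocrine cells, Gcg, the precursor of glucagon-like peptides, was lower without DSS (log2 fold change -0.45). Reg4, also abundant in deep crypt secretory cells, was higher (0.65). Over all genes, 1.58% were lower and 2.09% higher. Of the 11 log2 fold changes, 9 were below 0 and 2 above, with a median of -0.45 against -0.0016 for all genes. After DSS 1 of 9 was lower (3.25% of all genes), Pyy, the peptide YY of L cells, at 59.9, 55.5 and 71.5 CPM in WT DSS and 34.9, 43.2 and 45.8 CPM in MiR-29ab1-/- DSS mice (log2 fold change -0.59, edgeR adjusted p = 0.646). The genotypes did not overlap, as in 11.6% of all genes.

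Tac1, the precursor of substance P that many enterochromaffin cells contain, did not pass in either experiment with all mice. It was at 5.34, 6.86, 5.49 and 7.74 CPM in WT and 4.94, 3.41, 7.68 and 3.08 CPM in MiR-29ab1-/- mice without DSS (log2 fold change -0.41, 95% interval -1.06 to 0.23). Without MiR-29ab1-/- mouse 3 it was -0.73 and passed the cutoff, and it passed in 4 of the 16 fits that left out 1 mouse of each genotype. After DSS it was at 11.3, 36.1 and 15.3 CPM in WT DSS and 93.1, 120 and 19.4 CPM in MiR-29ab1-/- DSS mice (log2 fold change 1.89, 95% interval -0.35 to 4.12). MiR-29ab1-/- DSS mice 1 and 2, again those with the highest mitochondrial shares, were above all other mice, and mouse 3 lay within the WT range. Without mouse 3 the log2 fold change was 2.35 and passed the cutoff, as did DESeq2 (1.89) and one model over both experiments (1.89) with all mice.

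Mast cells, the other cells that express Tph1 in mice, were followed by a list of 12 markers. Its summed level was 138 to 245 CPM in WT and 179 to 251 CPM in MiR-29ab1-/- mice without DSS, of which Kit, which epithelial secretory cells express too, made up 125 to 230 CPM. Of the other markers, Mcpt1 was at 1.79 to 14.7 CPM over the 14 mice and Mcpt2 at 0.51 to 4.96 CPM. Hdc reached 3.08, Tpsb2 1.33 and Gata2 0.78 CPM, and Cpa3, Fcer1a, Ms4a2, Mcpt4 and Tpsab1 did not exceed 0.661 CPM. Of 5 tested genes, the chymase Cma1 was higher without DSS, at 1.27, 1.91, 1.61 and 2.62 CPM in WT and 7.51, 10.8, 5.02 and 4.95 CPM in MiR-29ab1-/- mice (log2 fold change 1.93, edgeR adjusted p = 0.334), without overlap. Over all genes, 2.09% were higher and 2.03% did not overlap. The rest of the tested markers did not pass, with log2 fold changes of 0.16 for Kit, -0.08 for Mcpt1, 0.21 for Mcpt2 and 0.16 for Tpsb2. After DSS 3 of 5 were lower (3.25% of all genes), Kit (log2 fold change -0.37) and the mucosal mast cell proteases Mcpt1 (-1.91) and Mcpt2 (-1.79). Mcpt1 was at 3.35, 12.9 and 6.88 CPM in WT DSS and 2.37, 2.02 and 1.79 CPM in MiR-29ab1-/- DSS mice, without overlap (11.6% of all genes did not overlap). Of the 5 tested, 4 had a negative log2 fold change and 1, Hdc, a positive one (0.96, 95% interval -0.996 to 2.91). The summed level of the list was 59.6 to 67.5 CPM in WT DSS and 38.0 to 49.9 CPM in MiR-29ab1-/- DSS mice. Kit made up most of it, at 45.6 to 52.95 CPM in WT DSS and 31.4 to 44.4 CPM in MiR-29ab1-/- DSS mice.

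The summed level of 7 T cell markers was 39.4 to 147 CPM in WT and 31.9 to 166 CPM in MiR-29ab1-/- mice without DSS, and 38.3 to 74.5 and 52.2 to 122 CPM after DSS. That of 7 myeloid markers after DSS was 12.1 to 26.5 CPM in WT DSS and 16.9 to 65.5 CPM in MiR-29ab1-/- DSS mice. Of the 7, 1 was higher by the test (3.98% of all genes were higher), and all 7 had a positive log2 fold change (median 0.57). The high sums were those of MiR-29ab1-/- DSS mice 1 and 2 (42.3 and 65.5 CPM), the mice with the highest mitochondrial shares. Mouse 3 (16.9 CPM) lay within the WT range. The 9 epithelial markers summed to 10920 to 14790 CPM in WT and 11090 to 14390 CPM in MiR-29ab1-/- mice without DSS, and to 18600 to 20790 and 19500 to 23220 CPM after DSS. The part of these cells in the differences of Tph1, Ddc and Htr4 was not tested.

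The genes whose log2 CPM varied most like that of Tph1 over the 8 mice without DSS were Epha7 (Pearson's r = 0.97), Camta1 (0.96), Grasp (0.96), Kif1a (0.95) and Slc39a14 (0.94). These are descriptions over 8 libraries that share their depth and scaling, picked from 15441 genes. Over the same mice r with Tph1 was 0.80 for Chgb, 0.77 for Slc18a1, 0.74 for Piezo2, 0.73 for Chga, 0.66 for Ddc, 0.56 for Lmx1a, 0.24 for Htr4, 0.0055 for Maoa and -0.43 for Slc6a4. Over the 6 mice after DSS the nearest genes were the mitochondrial gene mt-Ty (0.98), Tas1r3 (0.98), Gm5776 (0.98), a gene listed without a symbol (0.97) and Elmo2 (0.97). There r was 0.63 for Slc18a1, 0.35 for Chgb, -0.12 for Chga and -0.42 for Ddc, so the genes nearest to Tph1 in one experiment were not those nearest in the other.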

How the data were processed

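RNA sequencing of 14 mice was used. Each experiment has 1 table in which the authors deposited the count of reads for each gene, without normalization. The submitters' processing notes name HISAT2 and DESeq2, the labels name a directional library kit, and the counting tool, the genome build and the use of strand are not given in the sources used here. FPKM values and columns of the authors' own comparison (log2 fold changes and p values) are in the same tables and were not used. Columns without DSS were matched to mice by number, and those after DSS to groups only, so their mice are numbered here in column order. The gene positions in the tables equal those of GENCODE vM21 on GRCm38 for the genes described.

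Genes with low counts were removed by filterByExpr (minimum count 10, with a total of at least 15), libraries were scaled by TMM, and genotypes were tested within each table by the quasi-likelihood test of edgeR 4.0.16 (robust) in R 4.3.3, which left 15441 genes without DSS and 14908 after DSS. The functions were tested on simulated data. CPM values are scaled by TMM, and log2 CPM has a prior count of 2. Fold changes are MiR-29ab1-/- against WT. The interaction was fitted over the 54378 genes that both tables hold. A gene was called at an unadjusted p under 0.05, and the p printed is adjusted over all genes (Benjamini-Hochberg). Ratios of reads were compared by two-sided exact permutation tests. No 2 libraries agreed within sampling noise. P values of edgeR test the genotype difference against variation between these mice that is estimated with information from all genes. Those of the ratios come from permuting the genotype over these mice.

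Named were the 9 genes, the genes of the pathway lists with an unadjusted p under 0.05 in either experiment, Chga, Chgb, Tac1, Cpa3, Kit and Cma1, and the 5 genes most like Tph1 in each experiment. Fev, Muc2, Htr2b, Slc18a2, Tph2, the library checks and the other mast cell and tissue markers were named after their values were seen. The members and lists were chosen with earlier results of these data known. The alternatives were DESeq2 1.42.0, other size factors and filters, protein-coding genes only, one model over both experiments, the replicate number as a block, other denominators and added counts for the ratios, and each mouse left out. Leaving out 1 mouse of each genotype was added after the data were seen.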

Additional observations from a re-analysis of the deposited data

Results flagged for a closer look

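The genotype difference of Htr4 differed between the experiments at an unadjusted p under 0.05 in the test of the difference itself (log2 interaction -0.69, edgeR adjusted p = 0.987). It was 0.01 without DSS, where 2 of 4 MiR-29ab1-/- mice were below all WT mice, and -0.68 after DSS, where 3 of 3 were. Without WT mouse 1 or 3, MiR-29ab1-/- mouse 1, WT DSS mouse 1 or MiR-29ab1-/- DSS mouse 2 the interaction was -0.67, -0.66, -0.51, -0.50 and -0.49, and missed the cutoff. In 20 groups of 4 mice examined for a mouse far from the others by Dixon's 95% limit, 0 such mice were found.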

How the results depend on the processing

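Other size factors, DESeq2 and other filters on low counts left the number of serotonin genes called at 1 without DSS, 2 after DSS and 1 in the interaction. Leaving out mice gave 0 to 3, 0 to 2 and 0 to 2, and one model over both experiments gave 1 after DSS. With the replicate block, which needs a number in the column name and so was run without DSS only, 0 genes were called there and the log2 fold change of Htr4 was -0.017. The same numbers belong to different mice: deviations of same-numbered mice correlated at -0.030, 0.149, -0.194 and -0.127, and 2 of 8 mice correlated best with their own number. The log2 ratio of Tph1 to epithelial reads after DSS turned to 0.33 against markers of colonic epithelium and was -0.15 to 0.046 with mice left out. The list of colonic epithelium includes the goblet cell mucin Muc2, which made up much of its sum after DSS. Muc2 was at 5848 to 7992 CPM in WT DSS mice, where the list summed to 10140 to 13910 CPM. In MiR-29ab1-/- DSS mice Muc2 was at 3549 to 7453 CPM and the list at 9120 to 12240 CPM. With mice left out, the log2 fold changes that changed sign were those of Ddc (-0.33 to 0.13), Htr4 (-0.19 to 0.13) and Piezo2 (-0.79 to 0.22) without DSS, of Tph1 (-0.10 to 0.22), Slc18a1 (-0.057 to 0.085), Slc6a4 (-0.037 to 0.20), Maoa (-0.15 to 0.014) and Lmx1a (-0.38 to 0.53) after DSS, and the interaction of Piezo2 (-1.01 to 0.051). The causes were not tested. Levels under 1 CPM (Lmx1a, Piezo2) rest on few reads.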
